A study of Mus musculus with 4 samples.

Results

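Collecting lymphatic endothelium lines the muscular vessels that carry lymph from the capillary network towards the veins. It was picked out here as 293 of 23666 filtered cell barcodes, 1.24% (exact binomial 95% interval 1.10% to 1.39%). A barcode belonged to it if it had at least 1 UMI (a distinct captured transcript molecule) of Prox1, at least 1 of Mmrn1 or Flt4 and at least 1 of Cyyr1 or Plvap. It also had to have no UMI of Lyve1, Ptprc or Pdgfra and at most 1 of Ccl21a, and barcodes with both Foxc2 and Cldn11 were left out as valve-type. The members were thus chosen on measured levels of these 11 genes, whose values describe the choice and are no result.

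The cells came from collecting lymphatic vessels and adjoining tissue of C57BL/6J mice, 4 male and 4 female, aged 12 to 14 weeks, with no treatment named. Tissue from 4 regions (popliteal, inguinal axillary, superficial cervical and mesenteric) was combined for each mouse. Barcodes carry a suffix from 1 to 8 and no label ties a suffix to a mouse or a sex, so the matrix was treated as 1 pooled sample and no test was made. Values of the 8 suffixes are given as those of unlabelled samples. Levels are CPM, the count scaled to a sum of 1e+06, of UMIs summed over a set of barcodes, with exact Poisson 95% intervals; they are not divided by gene length. All intervals cover counting error only.

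Lymph is pushed along collecting vessels by contraction of lymphatic muscle and kept from flowing back by valves. The endothelium modulates the pace and strength of contraction through nitric oxide, prostanoids and endothelin, and it senses flow and stretch. PROX1 and VEGFR3 (encoded by Flt4) mark all lymphatic endothelium, whereas LYVE1 and the chemokine CCL21 are high in the blind-ended initial capillaries and low in collectors.

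The members held 3130390 UMIs, with a median of 7382 per barcode (626 to 65910), against a median of 8803 in the 23373 other barcodes. Each suffix held 19 to 70 members (median 34), or 0.617% to 2.18% of its barcodes (median 1.19%). None of the members was called a doublet, against 3.08% of the other barcodes. Barcode sequences were not shared between suffixes 1 to 4 or between suffixes 5 to 8 (12 pairs), and 44 were shared across these sets (16 pairs), 2 of them with members. Of 4 sets used for reference, 55 barcodes were initial lymphatic (Lyve1 and at least 2 UMIs of Ccl21a), 114 valve-type (Foxc2 and Cldn11 both present), 258 blood endothelial (Pecam1, Cdh5 and Flt1 present, Prox1 and Mmrn1 absent) and 251 B cells. B cells, chosen with no UMI of Prox1 or Cdh5, served as the background that free RNA leaves in cells that should lack endothelial genes. As in members, no doublet was called in the valve-type or blood endothelial set.

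The edges of the rule were narrow in places. Prox1 stood at exactly 1 UMI in 24 members and had a median of 8. Just outside, 57 barcodes failed only for want of Prox1, 59 only for want of Mmrn1 and Flt4, 21 only for a Ptprc UMI, 30 only for a Pdgfra UMI and 13 only for a Lyve1 UMI. Another 90 failed only because both valve genes were found.

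The label was checked on endothelial genes that the rule did not use. All 19 of the 20 pan-endothelial genes that reached 10 CPM in either set were at least 2-fold higher in members than in all other barcodes, with a median ratio of 16.0. Across all 9888 genes measured, 11.8% were at least 2-fold higher and 20.3% at least 2-fold lower in members. Cldn5, the tight junction protein of endothelium, stood at 1654 CPM (1609 to 1699) in members and 61.7 CPM in all other barcodes. Over the suffixes it ran from 1457 to 1870 CPM (median 1715) in members, against 24.1 to 121 CPM (median 54.4) in the others, and the ranges did not overlap. The exception in the list was Sox17, a factor of arterial endothelium, at 0.958 CPM in members and 4.94 CPM in all other barcodes, below the 10 CPM needed to be counted. Of the 9 lymphatic identity genes outside the rule, 8 were higher than in all other barcodes, among them Tbx1 at 236 against 8.04 CPM and Foxc1 at 147 against 13.3 CPM. The one that was lower, Pdpn (podoplanin), stood at 46.6 CPM in members and 101 CPM in the others, where fibroblasts held 177 CPM. Without suffix 3 its 50.2 against 101 CPM fell just short of 2-fold of CPM + 1, the scale on which genes are counted. Against blood endothelial barcodes, 4 of these 9 genes were higher, 1 lower and 4 neither. There, 8.63% of all genes measured were higher and 14.2% lower. Against initial lymphatic barcodes, 2 of the 9 were higher, 3 lower and 4 neither, where 7.42% of all genes were higher and 10.2% lower.

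RNA of other cell types was present at low level. The 6 fibroblast markers summed to 434 CPM in members and 15856 CPM in all other barcodes, with 255 to 1223 CPM (median 328) over the suffixes in members, and 1 of them, Pdgfra, was at 0 by rule. The 6 macrophage markers summed to 133 CPM in members and 2890 CPM in the others, with Ptprc at 0 by rule. The 5 smooth muscle markers summed to 38.3 against 2051 CPM, with none at 0. Of the 4 T cell markers, 3 were at 0 in members, and the list summed to 0.319 CPM. In all, 164 of the 293 members had 3 or more UMIs over 9 genes of fibroblasts, muscle, macrophages and mesothelium.

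The genes that stood furthest above all other barcodes joined a peptide precursor, an oxidase pair, a nitric oxide synthase and several receptors. The other barcodes include valve-type and other lymphatic barcodes, so these ratios are smaller than they would be against non-lymphatic cells. The ratio had its highest lower bound in Egfem1, at 161 against 3.25 CPM, 49.6 times higher (44.2 to 55.6). Nts, which encodes the precursor of the peptide neurotensin, was the most abundant of them. It stood at 3177 CPM (3115 to 3240) in members and 101 CPM in all other barcodes, 31.4 times higher (30.6 to 32.1). Across suffixes Nts ran from 1539 to 4662 CPM (median 2905) in members and from 32.2 to 234 CPM (median 96.9) in the others, with no overlap.

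Nts was found in 70.3% of members (64.7% to 75.5%) and in 3.59% of B cells, at median depths of 7382 and 5077 UMIs. After each barcode was thinned to 2000 UMIs, the shares were 64.1% and 1.59%, with 9 members and no B cell left out as too shallow. The peptide gene was also uneven among members, since the 10 with most Nts held 27.2% of its UMIs. Fibroblasts held 2.21 CPM of Nts, macrophages 3.55 CPM and blood endothelial barcodes 4.47 CPM, at or below the 10.3 CPM of B cells. The 90 barcodes that failed the rule only because both valve genes were found held 3892 CPM, so Nts was not particular to members.

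Duox2, an NADPH oxidase that makes hydrogen peroxide, and Duoxa2, the maturation factor that DUOX2 needs to leave the endoplasmic reticulum, stood high together. Duox2 held 112 CPM (101 to 125) in members and 3.44 CPM in all other barcodes, 32.6 times higher (28.7 to 37.1). Duoxa2 held 120 CPM (109 to 133) in members and 2.59 CPM in the others, 46.4 times higher (40.7 to 52.9). Over suffixes the member levels ran from 82.0 to 146 CPM (median 105) for Duox2 and from 67.0 to 165 CPM (median 119) for Duoxa2. In the other barcodes they ran from 2.34 to 5.45 CPM and from 1.30 to 3.90 CPM, below every member value. Neither gene had a UMI in the 258 blood endothelial or 251 B cell barcodes.

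The 2 oxidase genes are neighbours on mouse chromosome 2 and are read in opposite directions. On GRCm38, Duox2 covers 122279247 to 122298449 on the minus strand and Duoxa2 covers 122298900 to 122302885 on the plus strand, so their annotated starts lie 451 bases apart. Their promoter windows are shown because the genes stood high together, beside those of Nts and of Cyp1a1, which marked a cluster described further on. Each holds 250 bases before and 50 after a RefSeq start, from RefSeq on GRCm38.p6. Windows were found for all 4 genes looked up, and capitals mark the TATA box TATAAA and the core GCGTG bound by the aryl hydrocarbon receptor, searched on both strands. A TATA box and a GCGTG core cannot overlap. The RefSeq start of Duox2 lies inside the gene bounds given above, which come from another annotation, and the Duox2 and Duoxa2 windows share no base.
Duox2 (chr2:122298178-122298477, minus strand): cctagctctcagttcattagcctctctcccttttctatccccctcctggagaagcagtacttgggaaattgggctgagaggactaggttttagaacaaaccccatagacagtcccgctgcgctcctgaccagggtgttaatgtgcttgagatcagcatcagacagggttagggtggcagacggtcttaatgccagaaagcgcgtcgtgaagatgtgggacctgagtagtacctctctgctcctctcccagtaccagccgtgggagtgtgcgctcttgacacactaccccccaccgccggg
Duoxa2 (chr2:122298650-122298949, plus strand): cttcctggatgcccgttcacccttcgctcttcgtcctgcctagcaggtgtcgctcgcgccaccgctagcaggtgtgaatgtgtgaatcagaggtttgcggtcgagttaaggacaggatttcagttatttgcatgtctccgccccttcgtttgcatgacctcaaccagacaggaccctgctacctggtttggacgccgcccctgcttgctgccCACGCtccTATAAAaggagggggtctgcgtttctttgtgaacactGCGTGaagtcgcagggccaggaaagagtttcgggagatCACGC
Nts (chr10:102490369-102490668, minus strand): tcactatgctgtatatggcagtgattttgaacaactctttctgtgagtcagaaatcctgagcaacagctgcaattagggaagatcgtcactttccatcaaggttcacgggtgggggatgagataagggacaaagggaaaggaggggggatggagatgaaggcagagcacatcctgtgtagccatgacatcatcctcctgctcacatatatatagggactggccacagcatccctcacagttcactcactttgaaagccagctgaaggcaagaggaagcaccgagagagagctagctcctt
Cyp1a1 (chr9:57697363-57697662, plus strand): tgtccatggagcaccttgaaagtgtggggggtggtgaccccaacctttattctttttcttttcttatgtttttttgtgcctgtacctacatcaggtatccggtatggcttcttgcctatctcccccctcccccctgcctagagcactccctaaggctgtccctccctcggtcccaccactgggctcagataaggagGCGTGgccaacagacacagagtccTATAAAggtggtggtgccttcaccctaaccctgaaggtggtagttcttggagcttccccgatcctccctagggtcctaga
The Duoxa2 window held 1 TATA box and 3 GCGTG cores, and the Cyp1a1 window 1 of each. The Duox2 and Nts windows held neither of these exact spellings. Other spellings of the TATA box were not searched. Of all 27025 promoter windows in the table, 14.2% held the TATA box and 32.5% the GCGTG core.

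Vasoactive genes formed the next group. Of 20 measured genes for vasoactive output and its receptors, 11 were at least 2-fold higher and 5 at least 2-fold lower than in all other barcodes, with a median ratio of 2.35. The shares over all genes measured were 11.8% higher and 20.3% lower. Nos3, the endothelial nitric oxide synthase, stood at 250 CPM (233 to 268) in members, 221 CPM in valve-type, 93.9 CPM in blood endothelial and 64.6 CPM in initial lymphatic barcodes. Its suffix values ran from 185 to 335 CPM (median 237) in members, above the 41.7 to 149 CPM (median 91.5) in blood endothelial barcodes. Ptgs1, the constitutive cyclooxygenase, stood at 227 CPM in members, 210 CPM in valve-type, 71.6 CPM in blood endothelial and 33.9 CPM in initial lymphatic barcodes. Ptgs2, the inducible cyclooxygenase, stood at 12.8 against 219 CPM in all other barcodes, and Ptges, a prostaglandin E synthase, at 2.88 against 43.8 CPM.

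Chrm3, the muscarinic receptor through which acetylcholine prompts endothelial nitric oxide release, stood at 774 CPM (743 to 805) in members and 25.8 CPM in blood endothelial barcodes, 29.9 times higher (22.8 to 40.2). It had no UMI in B cells. F2r, a thrombin receptor, stood at 98.1 against 16.4 CPM and Tbxa2r, the thromboxane receptor, at 48.9 against 4.47 CPM in the same sets. Ece1, which converts the endothelin precursor to its active form, stood at 626 against 299 CPM. Its substrate Edn1 stood at 185 against 102 CPM, less than 2-fold apart. Ddah1 (129 against 28.8 CPM), which removes an inhibitor of nitric oxide synthase, also passed 2-fold. Ptgis, prostacyclin synthase, stood at 11.5 against 2.98 CPM, but 49.9 CPM was reached in suffix 7 and 0 to 9.16 CPM in the others. Without suffix 7 Ptgis stood at 3.11 CPM in members and 3.87 CPM in blood endothelial barcodes, and without suffix 8 Ece1 stood at 609 against 314 CPM, under 2-fold. Npr3, Hrh1, Bdkrb2, Adora2a and Ptger4 were at least 2-fold lower, so 8 genes of 21 were higher and 5 lower, where 8.63% of all genes measured against blood endothelial barcodes were higher and 14.2% lower. Valve-type barcodes held 694 CPM of Chrm3, 611 CPM of Ece1 and 162 CPM of Edn1. Against them, 1 of 18 measured genes of the list was higher, 1 lower and 16 neither. The higher gene was Ptgis (11.5 against 2.04 CPM), which was under 2-fold of CPM + 1 without suffix 7 (3.11 against 1.40 CPM). The shares over all genes measured against valve-type barcodes were 0.433% higher and 0.551% lower.

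Glp1r, the receptor of glucagon-like peptide 1, stood at 32.6 CPM (26.6 to 39.6) in members and 0.677 CPM in all other barcodes, 48.1 times higher (37.1 to 62.2). It was found in 23.9% of members and in none of the B cells. Its suffix values ran from 10.4 to 63.2 CPM (median 31.2) in members and from 0.259 to 1.26 CPM in the others. Clca3a1, a protein long used as a lymphatic endothelial surface marker in mouse, stood at 516 against 15.4 CPM and was found in 90.8% of members. Fzd6, a frizzled receptor of planar cell polarity, stood at 368 against 11.3 CPM, and Tead4, a DNA-binding partner of YAP, at 177 against 4.76 CPM. Bmx, a cytoplasmic tyrosine kinase, stood at 102 against 3.22 CPM, and Ncam2, a cell adhesion molecule, at 167 against 4.65 CPM.

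Ahsg, which encodes fetuin-A, a plasma protein made chiefly by liver, stood at 73.5 against 2.28 CPM, with a wide spread over suffixes of 13.7 to 197 CPM (median 57.3) in members. The remaining named genes were Gm26704 (33.9 against 0.786 CPM), Gm6213 (132 against 3.74 CPM) and D5Ertd615e (114 against 3.34 CPM). All 15 genes were higher in members in 8 of 8 suffixes, which was a condition for being named and is no separate result. Where their suffix ranges did not overlap, that was partly set by the same choice. The 8 genes named as lowest relative to all other barcodes included genes of immune and muscle cells. Cd86, a costimulatory protein of antigen-presenting cells, stood at 3.51 against 477 CPM, the transcription factor Zeb2 at 14.7 against 1037 CPM, and Tagln of smooth muscle at 8.31 against 583 CPM. C7, Cd52, Meg3, Arhgap15 and Egfr completed that list and stood at 0.958 to 8.63 CPM in members. Their sign is partly fixed by the rule, which left out barcodes with Ptprc or Pdgfra.

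**Figure D1:**
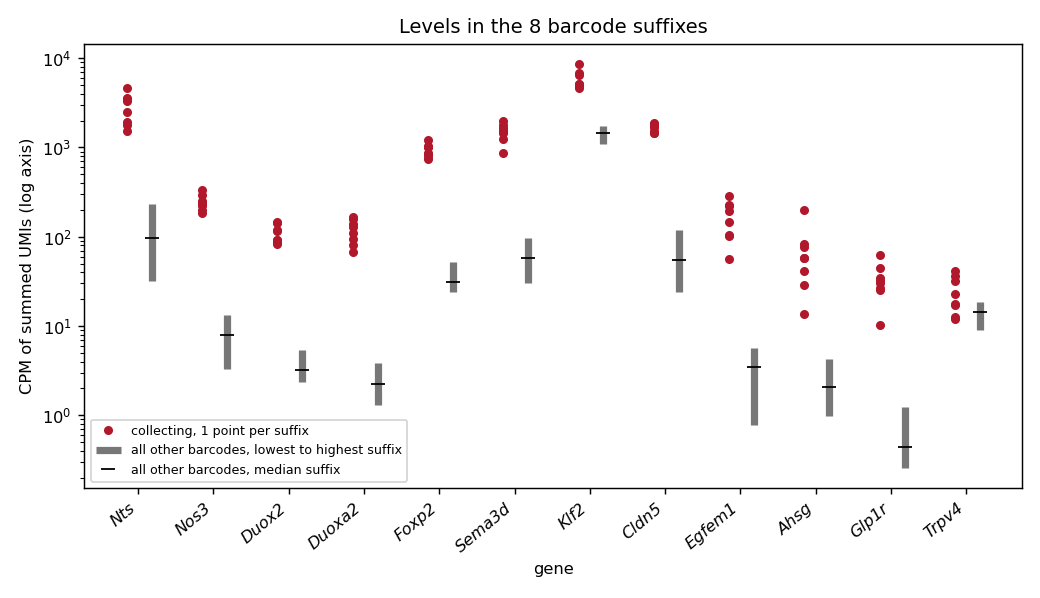
Levels of 12 genes in the 8 barcode suffixes, as CPM of summed UMIs on a log axis. Red points are collecting lymphatic members, 1 per suffix, and grey bars span the lowest to highest suffix of all other barcodes with the median as a black dash. The Trpv4 ranges overlap, and those of the other genes do not. Nts, Nos3, Duox2, Duoxa2, Egfem1, Ahsg and Glp1r could be named only if higher in every suffix, and Foxp2 and Sema3d likewise against blood endothelial barcodes. Their separation is therefore partly set by that choice. The share of all genes without overlap is not given.

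**Figure D2:**
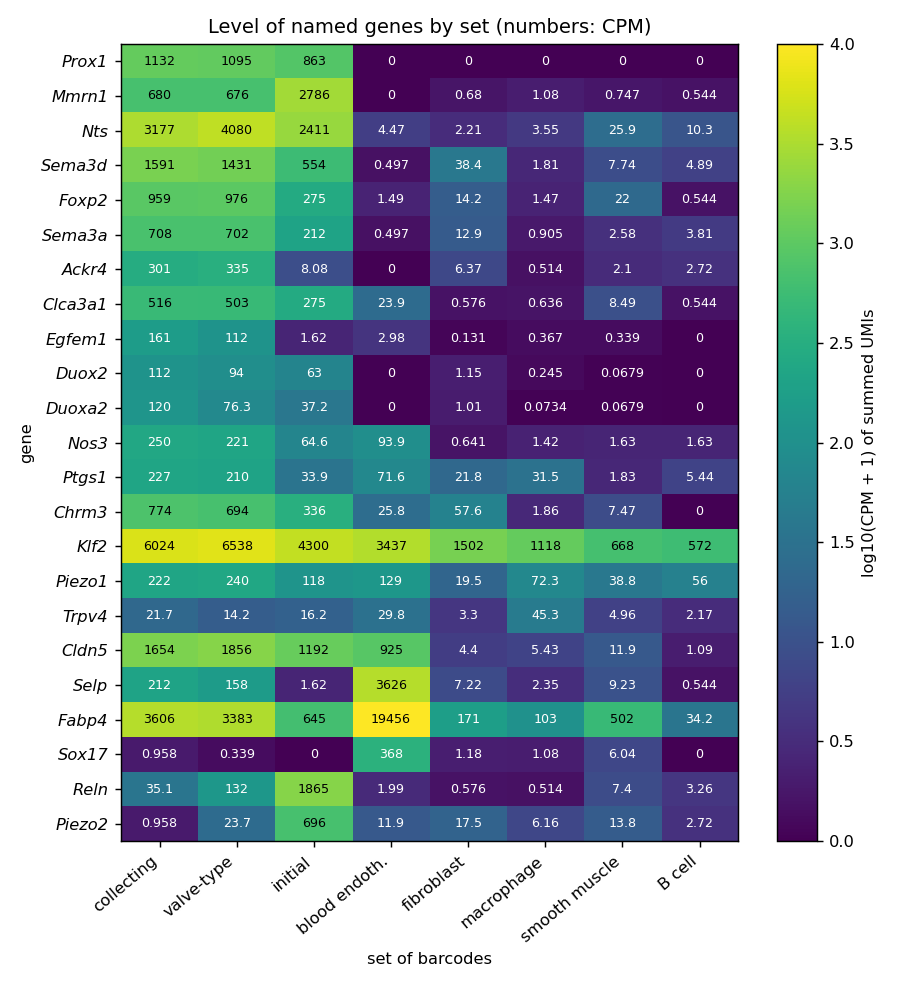
Level of 23 genes in 8 sets of barcodes, with the CPM of summed UMIs printed in each cell and colour on a log10(CPM + 1) scale. Prox1 and Mmrn1 were used to choose the first sets and are shown as a description. Collecting and valve-type barcodes show like levels for most of these genes but not for Reln (35.1 against 132 CPM) and Piezo2 (0.958 against 23.7 CPM), initial lymphatic barcodes are high in Reln and Piezo2, and blood endothelial barcodes in Selp, Fabp4 and Sox17.

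Of 14 genes of mechanosensing measured, 4 were higher and 2 lower than in all other barcodes, with a median ratio of 1.51. Among all genes measured, 11.8% were higher and 20.3% lower. Klf2, a transcription factor induced by laminar shear, was among the most abundant, at 6024 CPM in members, 3437 CPM in blood endothelial barcodes and 1455 CPM in all other barcodes. The suffix range of Klf2 in members, 4576 to 8563 CPM (median 5147), lay above that of blood endothelial barcodes, 1687 to 4304 CPM. Piezo1, a channel opened by membrane tension, stood at 222 CPM in members, 129 CPM in blood endothelial and 53.3 CPM in all other barcodes. Valve-type barcodes held 6538 CPM of Klf2 and 240 CPM of Piezo1.

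Trpv4, the calcium-permeable channel named in the study's title, stood at 21.7 CPM (16.9 to 27.5, 68 UMIs) in members and 14.8 CPM in all other barcodes, 1.46 times higher (1.13 to 1.86). It was higher in members in 5 of 8 suffixes, and its suffix values of 11.9 to 41.4 CPM (median 20.4) in members overlapped the 9.12 to 18.8 CPM of the others. Blood endothelial barcodes held 29.8 CPM, and the ratio of members to them was 0.728 (0.507 to 1.05). A Trpv4 UMI was found in 18.8% of members, against 1.59% of B cells.

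Against initial lymphatic barcodes, members were higher in Cmah, Ackr4, Nos3, Edn1 and the selectins and lower in Reln and Piezo2. Of 9046 genes measured, 671 (7.42%) were at least 2-fold higher and 925 (10.2%) at least 2-fold lower in members. Only 1 suffix held 10 or more barcodes of both sets, so the direction could be followed in that suffix alone. The initial set also carried more fibroblast RNA, with fibroblast markers at 434 CPM in members and 1941 CPM in initial barcodes, where a single suffix reached 9395 CPM. Without suffix 5, Dcn stood at 223 CPM in members and 201 CPM in initial barcodes. The part of this RNA in the lower genes was not tested.

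Ackr4, a receptor that takes up and degrades CCL19 and CCL21, stood at 301 CPM (282 to 321) in members and 8.08 CPM in initial barcodes, 37.2 times higher (15.9 to 115). It was listed among the capillary lymphatic genes, and was the 1 of 6 measured that was higher in members, where 4 were lower. Among those lower genes, Reln, an extracellular glycoprotein, stood at 35.1 against 1865 CPM and Piezo2, a second stretch-gated channel, at 0.958 against 696 CPM. Pdpn stood at 46.6 against 173 CPM. Mrc1, the mannose receptor, stood at 14.7 against 84.0 CPM.

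The selectins, which capture leukocytes from flowing blood, were nearly absent from initial barcodes. Selp stood at 212 CPM in members and 1.62 CPM in initial barcodes (1 UMI), a ratio of 131 (23.4 to 5185), and Sele at 156 against 1.62 CPM. Both remained far below the 3626 and 776 CPM of blood endothelial barcodes. Selp was also concentrated, since 51 members had a UMI and 10 of them held 60.9% of the 663 UMIs. Its suffix values ran from 10.7 to 695 CPM (median 178). Of the 51 members with Selp, 14 also had Flt1, a marker of blood endothelium that 53 members carried in all. Whether some of these barcodes hold RNA of blood endothelium was not tested.

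Cmah, an enzyme that hydroxylates sialic acid, stood at 1901 CPM in members and 59.8 CPM in initial barcodes, 31.8 times higher (23.0 to 45.2). Parm1 stood at 444 against 14.5 CPM and Plscr1, a phospholipid scramblase, at 156 against 3.23 CPM. Of 19 vasoactive genes measured, 7 were higher and 4 lower, the higher among them Edn1 at 185 against 9.70 CPM and Nos3 at 250 against 64.6 CPM. Of the lower ones, Ptgis stood at 11.8 against 5.48 CPM without suffix 5, and Adm, the adrenomedullin precursor, was under 2-fold of CPM + 1 without suffix 1, 2, 3, 5 or 8 (16.5 against 31.4 CPM without suffix 8). Of 19 junction and adhesion genes, 4 were higher, none lower and 15 neither. Over all genes measured against initial barcodes, 7.42% were higher and 10.2% lower. Scn3a (a sodium channel, 1.60 against 221 CPM), Apba2 (0 against 158 CPM, at least 165-fold lower at a floor of 3 UMIs over the set, with an exact 95% interval from 132-fold), Fgf12 (1.92 against 155 CPM) and Stmn2 (9.58 against 415 CPM) were on the low side. Slco2b1, an organic anion transporter, stood at 1.92 against 147 CPM and Gm17167 at 0.319 against 66.3 CPM. Of 13 immediate early and stress genes, 5 were lower in members, including Fos at 1552 against 4822 CPM, and Ier3 was higher. Of these 5, Dusp1 (1005 against 1726 CPM) and Ier2 (443 against 748 CPM) were under 2-fold without suffix 8, and Fosb without suffix 1, 2, 5 or 6 (291 against 572 CPM without suffix 1).

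Few genes differed by 2-fold between members and valve-type barcodes. Of 8536 genes measured, 37 (0.433%) were at least 2-fold higher and 47 (0.551%) at least 2-fold lower in members, and none of 14 measured valve genes outside the rule passed 2-fold, with a median ratio of 1.03. Celsr1, Gata2, Gja1, Itga9 and Efnb2, all genes with roles in valve formation, were within 2-fold of each other in the sets. Of the 3 genes named under the rule of a common direction in all 4 suffixes that could be compared, Ptprt, a receptor phosphatase, stood at 9.26 against 61.7 CPM. Reln stood at 35.1 against 132 CPM, and Nav2 at 32.6 against 81.1 CPM. The valve-type set was not cleared of capillary genes. Ccl21a, which the rule limits in members, stood at 0.958 CPM in members and 731 CPM in valve-type barcodes, and Lyve1 at 0 against 217 CPM, found in 20.2% of valve-type barcodes. Piezo2 stood at 0.958 against 23.7 CPM. The part of these capillary genes in the Reln difference was not tested. No gene was named as higher in members.

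Depth moved with this division. The median was 7382 UMIs in members and 19714 in valve-type barcodes, and the part of depth in the split was not tested. Foxc2 itself was found in 41.3% of members (35.6% to 47.2%) and Cldn11 in 10.2% (7.02% to 14.3%). At 2000 UMIs per barcode the shares were 15.1% in members and 35.1% in valve-type barcodes for Foxc2, and 2.82% and 22.8% for Cldn11, both genes of the rule. These values were set by the choice and describe it. The members are called collecting lymphatic here by the rule, not by a position outside the valves. Among barcodes of 10000 UMIs or more, 97 members were left, and 65 genes were higher and 65 lower than in valve-type barcodes. Without suffix 3, 7 or 8 the genes counted as higher were 56, 57 or 60 in place of 37.

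The blood endothelial comparison had the sharpest single genes. Of 9306 genes measured, 803 (8.63%) were at least 2-fold higher and 1319 (14.2%) at least 2-fold lower in members. Sema3d, a secreted class 3 semaphorin, stood at 1591 CPM (1547 to 1636) in members and 0.497 CPM (1 UMI) in blood endothelial barcodes, a ratio of 3201 (574 to 126469). Sema3a, the semaphorin known to act in lymphatic valve formation, stood at 708 against 0.497 CPM, also 1 UMI. Valve-type barcodes held 702 CPM of Sema3a, so it was not particular to members. Foxp2, a forkhead transcription factor, stood at 959 against 1.49 CPM and was found in 95.9% of members. The suffix values were 875 to 2002 CPM (median 1516) for Sema3d and 747 to 1204 CPM (median 938) for Foxp2 in members, and at most 4.27 and 12.8 CPM in blood endothelial barcodes.

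Ackr4, Ncam2 and Strip2 had no UMI in blood endothelial barcodes and were at least 202-fold, 112-fold and 102-fold higher in members at a floor of 3 UMIs over the set. The exact 95% intervals of these ratios began at 164-fold, 91.0-fold and 82.6-fold. Valve-type barcodes held 335 CPM of Ackr4 and 144 CPM of Strip2, against 301 and 152 CPM in members, so these 2 were not particular to members. Nrxn3, a neurexin adhesion protein, stood at 380 against 1.99 CPM. All 8 genes named as higher, Nts among them, were higher in 8 of 8 suffixes, again a condition for being named. Ackr3, a scavenger of CXCL12 and of adrenomedullin, stood at 405 against 30.8 CPM, 13.1 times higher (10.2 to 17.2). Among growth factor receptors, Met, the receptor of hepatocyte growth factor, stood at 163 against 15.9 CPM and Tgfbr2 at 365 against 104 CPM. Of 18 measured receptors, 2 were higher, 2 lower and 14 within 2-fold. These counts were near the shares over all genes measured, 8.63% higher and 14.2% lower. Wnt2 stood at 78.9 CPM in members with no UMI in blood endothelial barcodes, and Il7, a survival factor of lymphocytes, at 50.2 against 0.994 CPM.

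On the lower side, 16 of 17 measured blood endothelial genes were at least 2-fold lower in members, with a median ratio of 0.0628. The one within 2-fold was Vwf, at 157 against 162 CPM. Sox17 stood at 0.958 against 368 CPM, Mecom, a transcription factor of arterial endothelium, at 3.51 against 577 CPM, and Jam2, a junctional adhesion molecule, at 1.92 against 313 CPM. Nrp1, the neuropilin of blood vessels, stood at 4.79 against 426 CPM, whereas its lymphatic counterpart Nrp2 stood at 422 against 382 CPM. Csf2rb2 had no UMI in members and 146 CPM in blood endothelial barcodes, at least 152-fold lower at the same floor, with an exact 95% interval from 123-fold, and Tacr1, the substance P receptor, was likewise at 0 against 96.4 CPM. C1qtnf9, Rasa4 and Lnx1 completed the named genes, at 0.319 to 0.958 CPM in members.

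Lipid handling genes were lower as well, with 7 of 13 measured at least 2-fold lower and 1 higher. Over all genes measured against blood endothelial barcodes, 14.2% were lower and 8.63% higher. Fabp4, a fatty acid carrier, stood at 3606 CPM in members and 19456 CPM in blood endothelial barcodes, and Cd36, a fatty acid uptake receptor, at 140 against 1252 CPM. Of 26 measured matrix and basement membrane genes, 3 were higher, 9 lower and 14 neither, beside the same shares over all genes. The basement membrane collagens Col4a1 (92.0 against 569 CPM) and Col4a2 (75.7 against 484 CPM) were lower, while the laminin chain Lama4 ran the other way (493 against 131 CPM). Smooth muscle markers summed to 38.3 CPM in members and 1240 CPM in blood endothelial barcodes, pericyte markers to 16.0 and 652 CPM, and red blood cell markers to 10.9 and 2237 CPM, with 14832 CPM in 1 suffix (median 23.7 CPM) of blood endothelial barcodes. Mural and red cell RNA thus moved with the lower genes, and their part in them was not tested.

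**Figure D3:**
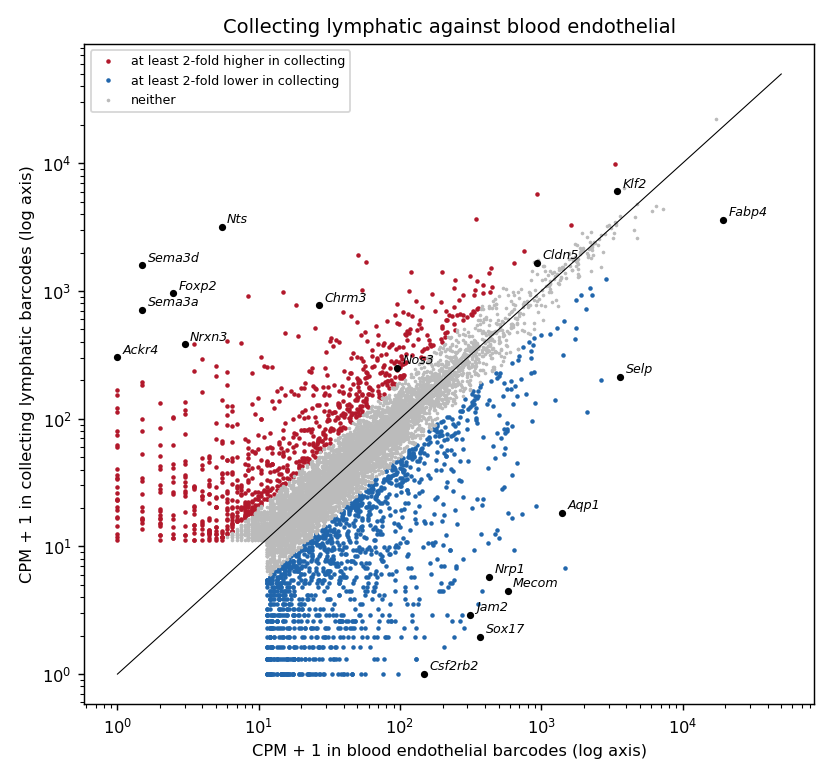
Each point is 1 of the 9306 genes at 10 CPM or more in either set, with CPM + 1 in blood endothelial barcodes across and in collecting lymphatic barcodes up, both on log axes. Red and blue points are at least 2-fold higher or lower in collecting barcodes. Nts, Sema3d, Sema3a, Foxp2 and Ackr4 lie far up at the left edge, and Sox17, Mecom, Jam2 and Csf2rb2 far down.

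**Figure D4:**
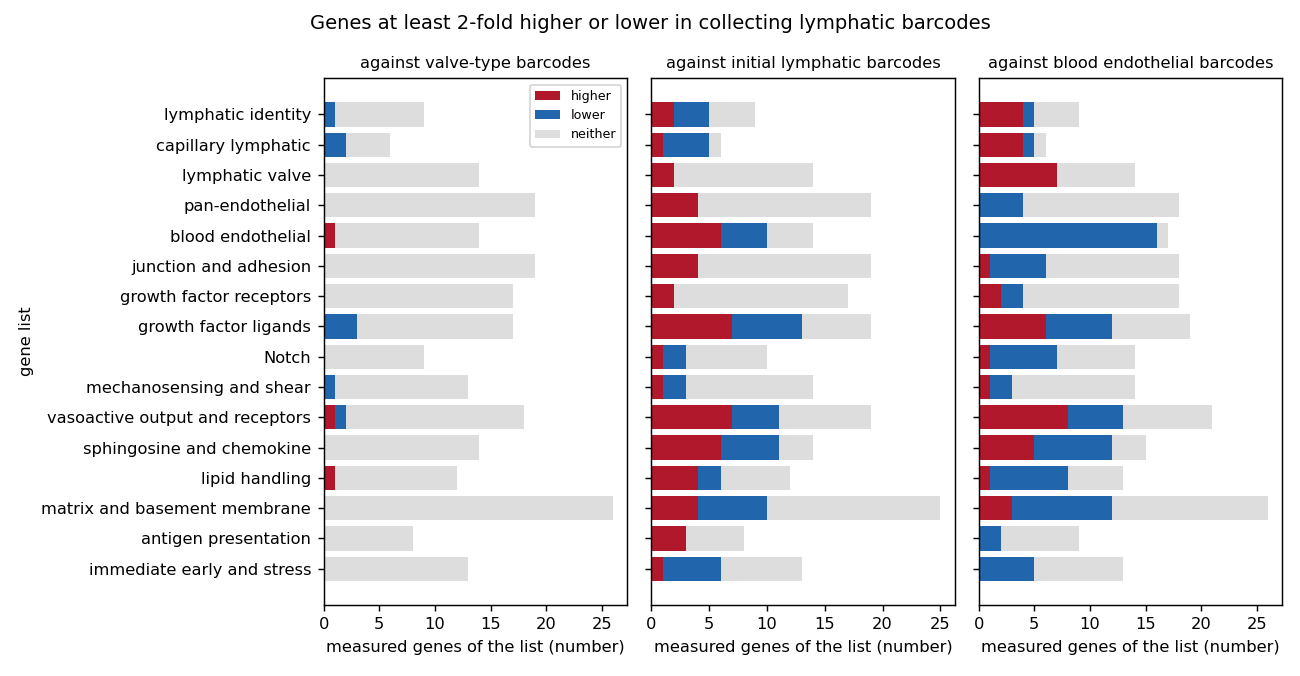
Number of measured genes of 16 lists that were at least 2-fold higher (red), at least 2-fold lower (blue) or neither (grey) in collecting lymphatic barcodes against 3 other endothelial sets. Against valve-type barcodes nearly all genes are grey, and against blood endothelial barcodes 16 of 17 blood endothelial genes are blue.

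Signals that guide immune cells were split. Of 15 measured sphingosine and chemokine genes, 7 were higher and 7 lower in members than in all other barcodes. Over all genes measured, 11.8% were higher and 20.3% lower. The higher ones included S1pr1, the receptor of sphingosine 1-phosphate, at 664 against 41.7 CPM, and Spns2, the transporter that releases it, at 223 against 15.3 CPM. The chemokines Cxcl1 (85.9 against 1604 CPM), Ccl2 (56.9 against 1140.4 CPM) and Ccl7 (49.5 against 945 CPM) were lower, and stood highest in fibroblasts or macrophages (Cxcl1 at 2748 CPM in fibroblasts, Ccl2 at 1726 CPM in macrophages). Plpp3, which degrades lipid phosphates, was also lower, at 170.3 against 1120.0 CPM. Of 9 antigen presentation genes, 5 were lower and none higher, beside the same shares over all genes. Cd74, the invariant chain of MHC class II, stood at 222 against 3401 CPM. In B cells Cd74 stood at 9278 CPM. Cd74 was found in 64.8% of members. Its level was 188 CPM in blood endothelial, 166 CPM in valve-type, 135 CPM in fibroblast and 123 CPM in smooth muscle barcodes. The part of free RNA in the Cd74 of members was not tested.

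The members themselves were not uniform. Clustering of the 293 barcodes gave 4 groups of 94, 94, 69 and 36, each with barcodes of all 8 suffixes. Genes that lead a cluster also shaped it, so their values describe the groups and are no test. Cluster 0 was led by Epha5, an ephrin receptor (144 CPM, against 14.9 CPM in the other members), Cmah (3277 against 1137 CPM) and Sema3a (1125 against 477 CPM). Cluster 1 was led by Rbp7, a retinol-binding protein (61.1 against 7.95 CPM), and Igfbp5, a binding protein of insulin-like growth factors (1224 against 298 CPM).

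The 69 barcodes of cluster 2 stood furthest apart. Cyp1a1, a cytochrome P450 induced through the aryl hydrocarbon receptor, stood at 259 CPM (227 to 294) there and 0.898 CPM in the other members, 288 times higher (78.9 to 2394). Cyp26b1, which degrades retinoic acid, stood at 251 CPM (220 to 286) against 1.35 CPM, and Rarb, a retinoic acid receptor, at 56.4 against 4.04 CPM. Both cytochrome genes were uneven, since the 10 members with most held 59.7% of Cyp1a1 UMIs and 63.5% of Cyp26b1 UMIs. Vwf, the platelet-binding von Willebrand factor, stood at 433 against 44.5 CPM and was found in 85.5% of the cluster against 19.2% of the other members. The alarmin Il33 stood at 246 against 25.6 CPM and Akap12, a scaffold of protein kinase A, at 655 against 73.7 CPM. Edn1 stood at 379 CPM, against 20.8 to 257 CPM in the other clusters.

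Cyp1a1 and Cyp26b1 were found in part in the same barcodes. Both were picked as leading genes of the same cluster of members, so their overlap in members was largely set by that choice. Of the 293 members, 45 had Cyp1a1, 50 had Cyp26b1 and 33 had both, and each of these 3 groups had barcodes in 8 of 8 suffixes. Valve-type barcodes gave like figures, with Cyp1a1 in 17, Cyp26b1 in 23 and both in 16 of 114. Blood endothelial barcodes had each gene in 32 of 258 but both in only 5. Of 6107 fibroblast barcodes, 14.0% had Cyp26b1 and 0.229% Cyp1a1. No Cyp1a1 UMI was found in 55 initial lymphatic barcodes, with an upper 95% limit of 6.49%.

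Cluster 2 held 12.5% to 43.6% of the members of a suffix (median 23.1%). Its median depth was 9225 UMIs, against 5526 to 8181 in the other clusters. Immediate early genes moved with it, with Fos at 2435 CPM against 552 to 1615 CPM, and Egr1 at 1394 CPM against 511 to 1085 CPM. So did the fibroblast gene Dcn, at 408 CPM against 125 to 199 CPM in the other clusters. Blood endothelial markers moved with it as well. Flt1 stood at 106 CPM in cluster 2 against 6.26 to 50.7 CPM in the other clusters, and was found in 46.4% of its barcodes. Gpihbp1, which holds lipoprotein lipase on capillaries, stood at 175 CPM against 16.6 to 61.1 CPM, and Cd36 at 379 CPM against 24.9 to 48.4 CPM. Fibroblast barcodes held 0.209 CPM of Cyp1a1, 1.03 CPM of Vwf and 0.0131 CPM of A2m, another leading gene of the cluster (75.2 against 4.49 CPM). The part of depth, the immediate early genes, or fibroblast or blood endothelial RNA in the cluster was not tested. Nts was higher there too, at 4990 CPM against 2299 to 2780 CPM, and Nos3 was at 185 CPM against 195 to 334 CPM.

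Cluster 3, with 36 barcodes, was led by Gadd45g, a growth arrest gene (946 against 381 CPM), followed by the valve gene Cldn11 (53.9 against 12.5 CPM), which was used in the rule. It also had more Cd74 (456 against 203 CPM), a gene that stood at 8769 CPM in macrophages. Klf2 varied little, from 5290 to 7517 CPM over the clusters. Foxp2 ran from 749 to 1053 CPM and Trpv4 from 15.5 to 30.0 CPM, with Poisson intervals of Trpv4 that all overlapped.

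**Figure D5:**
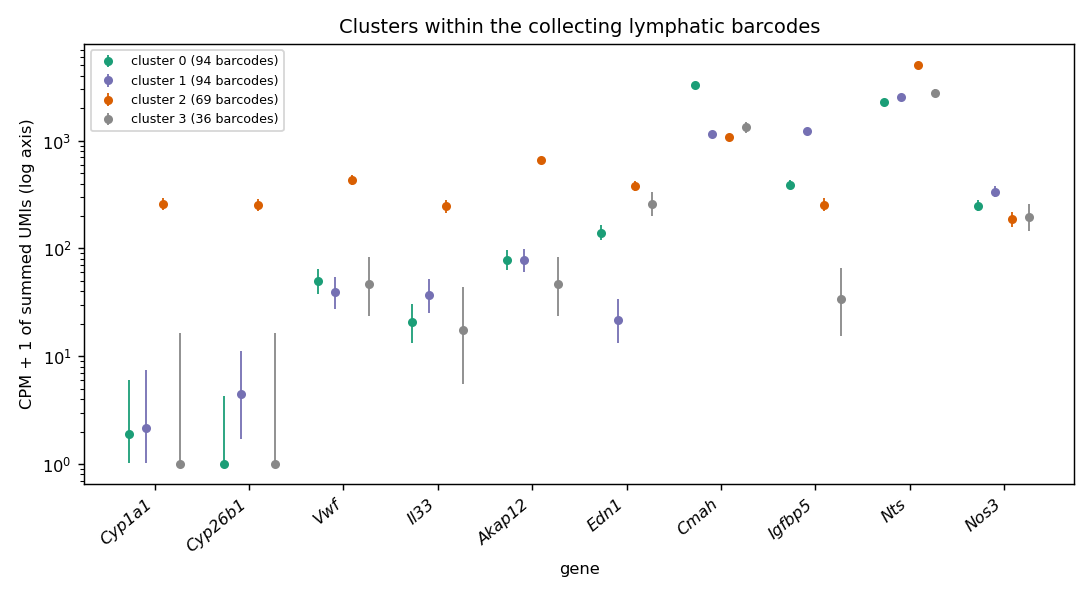
Levels of 10 genes in the 4 clusters of collecting lymphatic barcodes, as CPM + 1 of summed UMIs on a log axis with exact Poisson 95% intervals. Cluster 2 is near 250 CPM for Cyp1a1, Cyp26b1 and Il33, where the other clusters are at or below 35.7 CPM, and Cmah is highest in cluster 0 and Igfbp5 in cluster 1.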

How the data were processed

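RNA of single cells was sequenced in gene expression and tag libraries, 1 of each per sex. The authors deposited raw UMI counts as 1 matrix of 24046 barcodes, 32285 genes and 12 tags. Its header names Cell Ranger 7.1.0, and the submitters' processing notes also list Seurat 4.3.0.1 and mm10.

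The filter took out 380 barcodes under 500 UMIs, under 300 genes or at 15% or more mitochondrial UMIs. Of 2 IDs that share the symbol Ccl21a, the one with 11413 UMIs was used (4 in the other). UMIs were summed per set and scaled to CPM. CPM ratios have exact conditional binomial intervals and shares Clopper-Pearson intervals. Genes were measured at 10 CPM or more in either set and counted at 2-fold of CPM + 1, with rule genes left out. Scrublet (scanpy 1.11.5), run on suffixes 1 to 4 and 5 to 8 apart, called 3.44% and 2.70% as doublets, which stayed in. Members were clustered with Leiden at resolution 0.5. Other tools were numpy 2.4.6, scipy 1.17.1 and pandas 2.3.3, and the calculation was tested on simulated data. Gene bounds are those of GENCODE M21.

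Named genes were the 15 with the highest and 8 with the lowest ratio bounds against all other barcodes, and 8 each way against each endothelial set, with 1 direction in every suffix that held 10 or more barcodes of both sets. List genes past 2-fold or at 50 CPM could be named too. The members and lists were chosen with earlier results of these data known.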

Additional observations from a re-analysis of the deposited data

How the results depend on the processing

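No direction of the 23 named genes that were followed reversed in 437 values under the alternatives, although 256 of these lay outside the counting interval of the CPM ratio. These genes were picked from the same data for extreme ratios and 1 direction in every suffix. The lack of reversals was therefore largely set by that choice. The values followed were ratios of CPM + 1, whereas the interval was that of the ratio of plain CPM. Reported values of genes such as Egfem1 and Glp1r already lay outside it on that scale. The 256 values are therefore no measure of shifts under the alternatives. Of 191 counts under alternatives, 148 were within 1.5 times the reported ones. The comparison with valve-type barcodes (37 higher, 47 lower) moved most. Leaving out members with 3 or more UMIs of other cells' genes kept 129 members, with 112 genes higher and 181 lower than in valve-type barcodes. Suffixes 1 to 4 alone held 116 members and gave 177 and 155 there, and 1009 higher and 1419 lower than in initial barcodes. Suffixes 5 to 8 alone held 177 members and gave 84 and 109 against valve-type barcodes, and the mean of per-barcode CPM gave 105 and 107. A pseudocount of 10 CPM gave 391 and 473 against initial and 5 and 18 against valve-type barcodes. With no minimum level, 3959 genes were lower than in all other barcodes, and the higher and lower counts were 1640 and 2185 (initial), 335 and 357 (valve-type) and 1292 and 2481 (blood). A minimum of 50 CPM gave 818 lower than in all other barcodes, and 297 and 331, 2 and 8, and 461 and 549 in the same order. At 3-fold, 722 were higher than in all other barcodes, with 290 and 418, 5 and 21, and 461 and 848. Among barcodes of 10000 UMIs or more, chosen after seeing the data, 97 members were left and 65 genes were higher than in valve-type barcodes. Leaving out 1 suffix at a time gave 27 to 60 genes higher than in valve-type barcodes, past 1.5 times the reported count without suffix 3, 7 or 8. The cause of these shifts was not tested. At other resolutions, also tried after seeing the data, the cluster led by Cyp1a1 held 69 barcodes at 0.3 (68 shared) and 53 at 1.0 (53 shared). No paired analysis was possible because no label gives the suffixes a replicate number and no test was made; directions within suffixes are given as counts only. Sparse genes are limited by depth, as with the 68 UMIs of Trpv4 in members.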
